A study of Mus musculus with 13 samples.

Results

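The circadian clock genes are the transcripts of the cell's daily oscillator. This account follows 10 of them, Arntl, Clock, Per1, Per2, Per3, Cry1, Cry2, Nr1d1, Nr1d2 and Dbp, out of 35734 genes in the authors' deposited table. They were chosen by the RNA values of these same libraries: Nr1d1 was already known to fall steeply between the groups, and the other 9 were taken as the core loop around it and its classical output gene. The difference between the groups therefore entered the choice, and the values of the 10 genes are given below as a description. Where it is said that one of them passed the threshold used for all genes, that describes its place in the fit and is no independent test. The RNA came from dissociated retinas of CD1 mice of postnatal day 0. The 4 control libraries came from cells transfected to express GFP. The 4 Ikzf1 libraries came from cells transfected with Ikzf1-IRES-GFP, so that Ikzf1 and GFP were made together. Ikzf1 is the gene of Ikaros, a DNA-binding zinc finger protein of the lymphoid lineage and of early retinal progenitors. Both groups were cultured for 9 h in plates and sorted for GFP, with 400000 cells in each control replicate and 300000 in each Ikzf1 replicate. The labels name no mutant allele in either group. The promoter of the plasmid used for the RNA libraries, the number of animals behind a replicate and the hour of the day at harvest are not given in the sources used here.

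The mammalian clock is a loop of transcription with a delay. The proteins of Arntl (BMAL1) and Clock pair, bind E-boxes and switch on the Per and Cry genes, whose proteins return to the nucleus and shut the pair down. In a side loop the same pair switches on Nr1d1 and Nr1d2, which encode the nuclear receptors REV-ERB alpha and REV-ERB beta, and these repress Arntl and Clock in competition with the activating ROR receptors. Dbp is a direct E-box target that passes the rhythm on through D-boxes. The retina carries its own clock, which in the adult shapes dopamine and melatonin release and visual sensitivity. All libraries were taken at 1 time after transfection, so a shift in the phase of an oscillation and a change in its mean level cannot be told apart here.

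The libraries held 21.4 to 30.5 M estimated read pairs. The Ikzf1 transcripts took 15.9 to 17.2% of the reads where Ikzf1 had been transfected and 0.00723 to 0.00909% in the controls, so the misexpression was visible in every library. Mitochondrial reads made up 2.43 to 2.95% of the controls and 2.18 to 2.51% of the Ikzf1 libraries. These are shares of all reads, those of Ikzf1 included, so no difference between the groups is read from them. All 12 listed progenitor markers were read. Their summed level was 2221 to 2356 CPM in the controls and 2086 to 2129 CPM in the Ikzf1 libraries (CPM, counts scaled to library size with TMM factors). Of the 12, 3 were higher, 7 lower and 2 did not pass an adjusted p of 0.05 in edgeR (median log2 fold change -0.27). Among all tested genes 29.3% were higher and 29.8% lower. Photoreceptor precursor markers (6 of 6 genes) summed to 1062 to 1238 CPM in the controls and 707 to 818 CPM in the Ikzf1 libraries. Retinal ganglion cell markers (5 of 5) summed to 25.5 to 31.7 and 54.8 to 60.0 CPM, and amacrine and horizontal cell markers (7 of 7) to 212 to 265 and 214 to 244 CPM. Markers of microglia (5 of 6 genes read), pigment epithelium (3 of 5) and astrocytes (3 of 4) summed to at most 4.43, 5.03 and 4.67 CPM in any library. Rpe65, of the pigment epithelium list, was at 0 throughout. None of the 5 red blood cell markers was read per library. Their mean normalised count in the authors' deposited table was at most 3.29, and Alas2 among them was at 0. The endothelial list (5 of 6) summed to 404 to 475 CPM in the controls and 207 to 248 in the Ikzf1 libraries, nearly all of it Kdr, which neural progenitors of the retina also express. The part of these cell type differences in the results below was not tested. In sorted bulk cells, fewer cells of a type and less RNA per cell cannot be told apart.

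Stretches of promoter are shown for 4 of the genes because they set the gene with the deepest fall beside genes with the classical clock elements. The RefSeq promoter table (GRCm38.p6) held 13 windows for 9 of the 10 genes and none for Per2. Each stretch is the 250 bases before a start site, written 5′ to 3′ on the strand of the gene, and capitals mark matches to the motifs named after them. Nr1d1 lies at chr11:98775378-98775627 on the minus strand, the more upstream of the Per1 windows at chr11:69098699-69098948 on the plus strand, Per3 at chr4:151044666-151044915 on the minus strand and Cry1 at chr10:85185055-85185304 on the minus strand. The Per1 start used there is 3732 bases downstream of the start of the gene in the authors' deposited table.
Nr1d1: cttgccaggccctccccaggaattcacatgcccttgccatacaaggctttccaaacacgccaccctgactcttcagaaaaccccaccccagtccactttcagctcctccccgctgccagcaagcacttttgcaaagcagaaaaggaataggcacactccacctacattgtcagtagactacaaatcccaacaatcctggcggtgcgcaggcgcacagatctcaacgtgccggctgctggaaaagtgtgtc
Per1: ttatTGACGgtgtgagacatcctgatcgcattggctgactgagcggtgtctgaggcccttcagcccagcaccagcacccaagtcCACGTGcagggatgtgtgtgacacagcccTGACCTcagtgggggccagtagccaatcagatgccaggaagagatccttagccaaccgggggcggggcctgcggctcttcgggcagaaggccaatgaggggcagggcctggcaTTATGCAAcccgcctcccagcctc
Per3: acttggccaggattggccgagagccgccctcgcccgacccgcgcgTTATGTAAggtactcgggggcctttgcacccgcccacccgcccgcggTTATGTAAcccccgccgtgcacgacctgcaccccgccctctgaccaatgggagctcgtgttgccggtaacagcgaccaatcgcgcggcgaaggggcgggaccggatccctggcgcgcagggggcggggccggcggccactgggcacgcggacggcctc
Cry1: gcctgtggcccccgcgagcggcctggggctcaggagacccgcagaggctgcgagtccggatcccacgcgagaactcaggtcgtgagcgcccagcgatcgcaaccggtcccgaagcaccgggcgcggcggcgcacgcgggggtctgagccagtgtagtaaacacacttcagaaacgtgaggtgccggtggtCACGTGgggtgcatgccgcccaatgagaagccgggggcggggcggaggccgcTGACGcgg

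Motifs were searched on both strands from 250 bases before to 50 bases after each start site, and positions count bases from the start site to the first base of the match. The motifs were the E-box CACGTG, the hexamer AGGTCA bound by REV-ERB and ROR receptors and its longer form TAGGTCA, the D-box TTATGNAA, the cAMP response element TGACGTCA and its core TGACG, and TGGGAA, the core bound by Ikaros. The longer receptor site and the full cAMP element each contain their shorter form, so those matches overlap. The Nr1d1 window held none of the 7 motifs. The same was true of the Dbp window, the more upstream Arntl window and the Clock windows other than the one named below. Sequence outside the windows was not searched. The Per1 stretch above held a cAMP core element at position -246, an E-box at -166, an inverted AGGTCA at -137 and a D-box at -24. The Per3 stretch held a D-box at -205 and another at -158. The Cry1 stretch held an E-box at -60 and a cAMP core element at -8. Elsewhere, AGGTCA was found in Nr1d2 at -77, in Clock at -119 and in Arntl 31 bases past a start, there in its longer form. The cAMP core element was also found in the downstream Per1 window at -132 and, inverted, in Cry2 at -209. TGGGAA was found in the downstream Per1 window at -217 and in Cry2 at -170. Among all 32851 windows of the table, 7.15% held the E-box, 16.3% AGGTCA, 2.61% TAGGTCA, 3.38% the D-box, 1.79% the full cAMP element and 20.8% its core, and 25.6% TGGGAA. Of the 13 clock gene windows, 2 held an E-box, 4 held AGGTCA, 1 held TAGGTCA and 2 held a D-box. The full cAMP element was in 0 of them, its core in 4 and TGGGAA in 2. A match of letters is a description and not a measured binding site.

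Across the 10 clock genes, 9 were lower and 1, Cry1, was higher in the Ikzf1 libraries. All 10 passed the threshold applied to every gene (an adjusted p of 0.05 in edgeR), where 59.1% of the 15591 genes tested passed, 29.8% lower and 29.3% higher. Since the choice of genes used this contrast, nothing is read from their count against that share. The median log2 fold change of the 10 was -0.50, against 0.00 for all genes tested. Nr1d1, Per1 and Dbp had log2 fold changes of -1 or less, where 6.39% of all genes passed with such a value. For 9 of the 10 the 4 Ikzf1 libraries lay wholly to one side of the 4 controls, and 53.1% of all genes were separated in this way. Per3 was the exception. The authors' deposited table also called all 10, in the same directions, where it called 41.8% of 19121 genes.

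**Figure D1:**
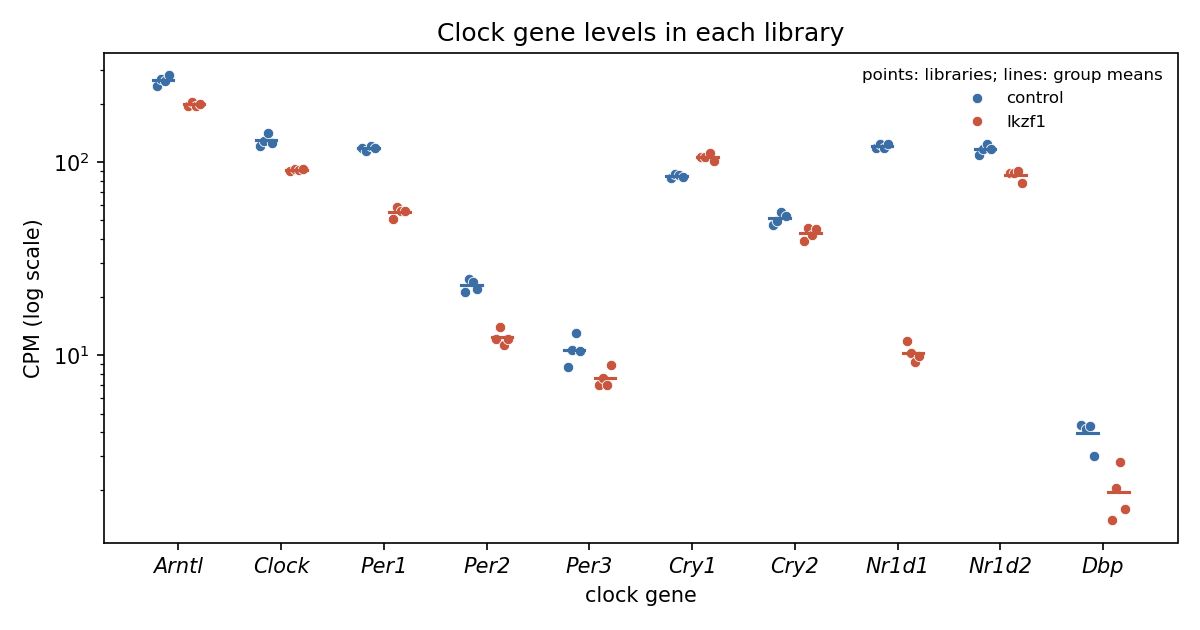
Level of each clock gene in CPM (log scale, vertical axis) in the 4 control and 4 Ikzf1 libraries, one point per library with a line at each group mean. Nr1d1 drops from 121 to 10.3 CPM, Cry1 is the gene whose Ikzf1 points lie above its control points, and the Per3 points of the groups overlap.

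The activators stood lower in the Ikzf1 libraries at 74.6% and 70.2% of the control level. Arntl, the BMAL1 gene (ENSMUSG00000055116, GRCm38 chromosome 7, 113207465 to 113314126, plus strand), measured 247, 271, 264 and 282 CPM in controls 1 to 4 and 195, 204, 195 and 201 CPM in the Ikzf1 libraries. Every Ikzf1 library was below every control, and the mean went from 266 ± 14.7 to 199 ± 4.63 CPM (SD, n = 4 each). In log2 units the difference was -0.42, with a standard error (SE) of 0.04. Clock, its partner and a histone acetyltransferase (ENSMUSG00000029238, chromosome 5, 76209868 to 76304792, minus strand), measured 122, 129, 142 and 126 CPM in the controls and 89.6, 92.1, 91.2 and 92.1 CPM in the Ikzf1 libraries. The Ikzf1 values lay close together and below all controls. The mean went from 130.0 ± 8.58 to 91.3 ± 1.17 CPM (log2 fold change -0.51, SE 0.05). Npas2, which can stand in for Clock in the pair, fell from 13.4 to 10.1 CPM (log2 fold change -0.40, SE 0.09, edgeR adjusted p 0.000483). Arntl2, the paralog of Arntl, was at 7.25 CPM in the controls and 7.99 CPM in the Ikzf1 libraries and did not pass (log2 fold change 0.14, edgeR adjusted p 0.329).

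Among the Period genes, whose proteins form the repressing arm with the cryptochromes, the falls were of different size. Per1 (ENSMUSG00000020893, chromosome 11, 69095217 to 69109960, plus strand), which also responds acutely to light and cAMP signals, measured 119, 114, 122 and 118 CPM in the controls. In the Ikzf1 libraries it measured 50.7, 58.7, 55.6 and 56.1 CPM. The Ikzf1 libraries kept 46.8% of the control level, and the groups were far apart relative to their spread (118 ± 3.12 and 55.3 ± 3.32 CPM, SD, n = 4 each). Its log2 fold change was -1.10 (SE 0.05), and 863 of the tested genes had a lower value. Per2 (ENSMUSG00000055866, chromosome 1, 91415982 to 91459324, minus strand), the Period gene most needed for a stable rhythm in mice, measured 21.4, 24.8, 23.9 and 22.1 CPM in the controls and 12.1, 14.1, 11.3 and 12.2 CPM in the Ikzf1 libraries. All Ikzf1 values were lower, and 53.9% of the control mean was left (log2 fold change -0.89, SE 0.08). With an offset for mean transcript length its log2 fold change was -0.70. Per3 (ENSMUSG00000028957, chromosome 4, 151003652 to 151044665, minus strand), the Period gene least needed for rhythm, measured 8.67, 10.7, 13.0 and 10.5 CPM in the controls and 7.02, 7.66, 7.01 and 8.90 CPM in the Ikzf1 libraries. Here Ikzf1 replicate 4 was above control replicate 1, so the groups overlapped. The log2 fold change was -0.48 with an SE of 0.12, the widest interval among the 10 after that of Dbp (95% interval -0.72 to -0.25).

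The cryptochrome genes, flavoproteins that bind and block the activator pair, moved in opposite directions. Cry1 (ENSMUSG00000020038, chromosome 10, 85131700 to 85185064, minus strand), the stronger repressor of the pair, measured 83.1, 86.5, 85.8 and 83.6 CPM in the controls and 106, 107, 111 and 102 CPM in the Ikzf1 libraries. Every Ikzf1 library was above every control. Its mean rose from 84.8 ± 1.64 to 106 ± 3.62 CPM (SD, n = 4 each), or 126% of the control, and the log2 fold change was 0.33 (SE 0.04). Cry2 (ENSMUSG00000068742, chromosome 2, 92403646 to 92434043, minus strand) measured 47.1, 49.9, 55.2 and 52.7 CPM in the controls and 39.3, 45.9, 42.2 and 45.0 CPM in the Ikzf1 libraries. All Ikzf1 values were below the lowest control, the closest pair being 45.9 and 47.1 CPM. Its log2 fold change of -0.25, with an SE of 0.06, was the smallest of the 10. Scaling matters for these small changes. When library totals were used with no scaling factor, the median of all genes moved to -0.21 on the log2 scale and Cry1 was at 0.12, still past the edgeR threshold. In the same setting Cry2 was at -0.46, Arntl at -0.64 and Nr1d1 at -3.77.

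The REV-ERB genes held the steepest change. Nr1d1 (ENSMUSG00000020889, chromosome 11, 98767932 to 98775333, minus strand) measured 118, 124, 119 and 124 CPM in the controls. In the Ikzf1 libraries it measured 11.9, 10.3, 9.21 and 9.89 CPM, from 230 to 279 reads each. No Ikzf1 library came near a control, and each group was tight (121 ± 3.15 and 10.3 ± 1.13 CPM, SD, n = 4 each). That left 8.50% of the control level, an 11.8-fold fall, with a log2 fold change of -3.56 and a standard error of 0.06. Of the 15591 tested genes, 11 had a lower log2 fold change. The authors' deposited table gave -3.37. Nr1d2 (ENSMUSG00000021775, chromosome 14, 18204054 to 18239127, minus strand), the partly redundant paralog, measured 109, 117, 125 and 117 CPM in the controls and 87.7, 88.3, 89.9 and 78.2 CPM in the Ikzf1 libraries. It kept 73.5% of the control level, with no overlap between the groups (log2 fold change -0.45, SE 0.05). The paralogs were thus at a like number of CPM in the controls, and their log2 fold changes were -3.56 and -0.45.

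Rora and Rorb, genes of ROR receptors, which bind the same sites as the REV-ERB proteins and activate, were lower as well. Rora fell from 54.7 to 41.0 CPM (-0.42 in log2 units, SE 0.05, edgeR adjusted p 1.47e-07). Rorb, the family member most abundant in the retina and needed for rod formation, fell from 534 to 407 CPM (log2 fold change -0.39, SE 0.04, edgeR adjusted p 3.79e-09).

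Dbp, the PAR bZIP output factor (ENSMUSG00000059824, chromosome 7, 45705088 to 45710203, plus strand), had few reads, 87 to 118 in a control library and 33 to 70 in an Ikzf1 library. It measured 4.34, 4.16, 4.30 and 3.03 CPM in the controls and 1.40, 2.07, 2.80 and 1.60 CPM in the Ikzf1 libraries. All Ikzf1 values were lower, but control replicate 4 and Ikzf1 replicate 3 were close. The mean level was 49.8% of the control (log2 fold change -1.01, SE 0.21, 95% interval -1.41 to -0.60). The other PAR bZIP factors, which share the D-box, went in different directions. Tef fell from 59.2 to 39.3 CPM (log2 fold change -0.59, SE 0.05, edgeR adjusted p 6.65e-11). Hlf rose from 17.5 ± 0.333 to 35.3 ± 0.816 CPM, higher in 4 of 4 Ikzf1 libraries (log2 fold change 1.01, SE 0.06, edgeR adjusted p 7.71e-14). Nfil3, which represses through the D-box, rose from 63.6 to 106 CPM (log2 fold change 0.73, SE 0.05, edgeR adjusted p 4.10e-12).

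The further feedback repressors were expressed at low levels. Bhlhe40 was at 2.53 CPM in the controls and 2.36 CPM in the Ikzf1 libraries and did not pass (edgeR adjusted p 0.688). Bhlhe41 went from 7.14 to 4.46 CPM (log2 fold change -0.68, edgeR adjusted p 0.000143). With the length offset the Bhlhe41 value was -0.48 and lost its call (edgeR adjusted p 0.0975). Ciart, a repressor of the activator pair, went from 4.95 to 3.45 CPM with overlapping groups (log2 fold change -0.52, edgeR adjusted p 0.0118). Its call was lost with the length offset (-0.46, edgeR adjusted p 0.0575), without control replicate 2 (-0.43, 0.0604) and without control replicate 4 (-0.43, 0.0568). Of the 11 close relatives in all, 2 rose and 7 fell past the edgeR threshold, with a median log2 fold change of -0.40, where 29.3% of all tested genes rose and 29.8% fell.

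**Figure D2:**
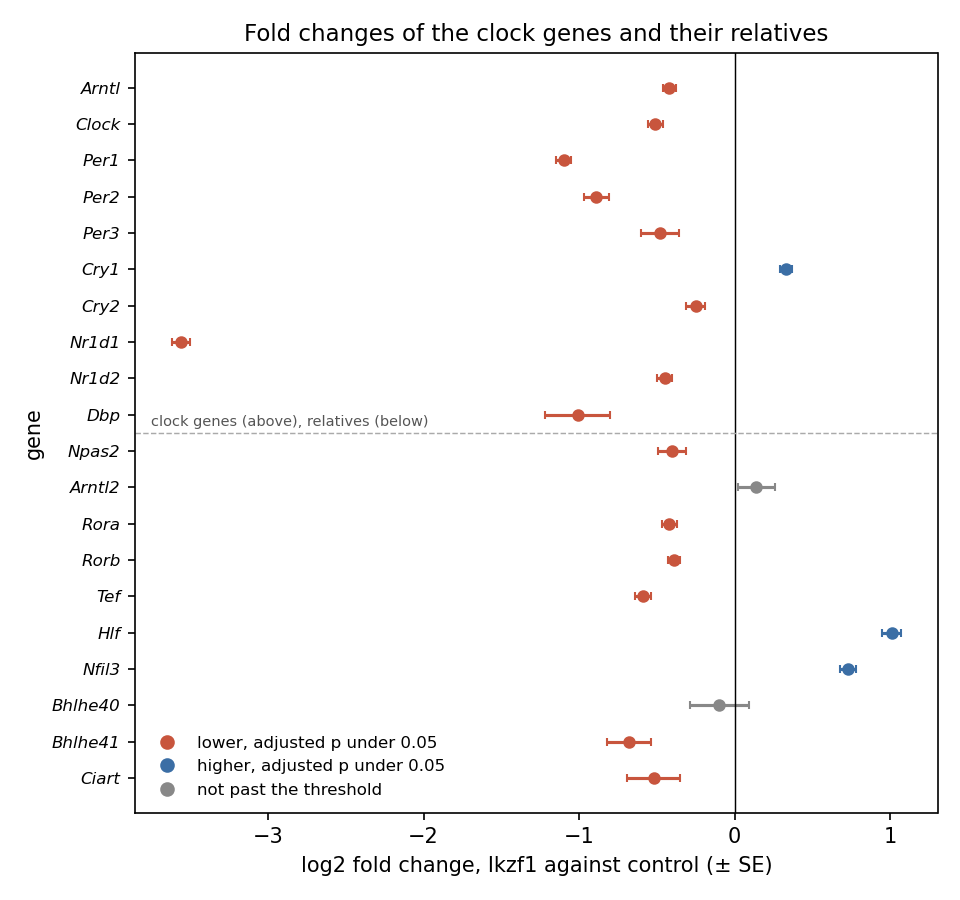
Log2 fold change of the 10 clock genes and of the relatives named in the text, Ikzf1 against control (horizontal axis; bars are ± 1 standard error), coloured by the edgeR call over all genes. Nr1d1 lies at -3.56, Cry1 is the 1 clock gene to the right of 0, and Hlf and Nfil3 lie to the right among the relatives.

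Levels of different genes were compared per length, as TPM (a level relative to all transcripts, corrected for their length). In the controls Arntl was the most abundant at 205 ± 13.0 TPM, above 95.7% of joined genes, and Nr1d1 came next at 90.8 ± 2.21 TPM (SD, n = 4 each). Nr1d2 (62.6 ± 4.63) and Cry1 (59.6 ± 5.32) overlapped in range, followed by Per1 (51.5 ± 1.65), Clock (33.8 ± 2.13) and Cry2 (26.4 ± 2.11), each apart from its neighbour. Per2 stood at 7.66 ± 0.553 TPM, and Dbp (5.82 ± 1.14) and Per3 (3.93 ± 0.638) overlapped at the foot of the order. In the Ikzf1 libraries Arntl was again the most abundant, at 132 ± 5.43 TPM, and Cry1 came next at 61.8 ± 2.17 TPM. Nr1d2 followed at 39.7 ± 1.65 TPM, and Per1 (21.2 ± 1.54), Clock (19.9 ± 0.537) and Cry2 (19.3 ± 1.58) overlapped from one to the next. Nr1d1 went from the second to the seventh place, at 7.24 ± 1.31 TPM, apart from Cry2 above it and Per2 below it. Per3 (2.44 ± 0.470) and Dbp (2.28 ± 1.01) overlapped again. TPM in the Ikzf1 libraries also carries the share of each library taken by Ikzf1 itself, so the order within a group can be read more safely than a TPM difference between groups.

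**Figure D3:**
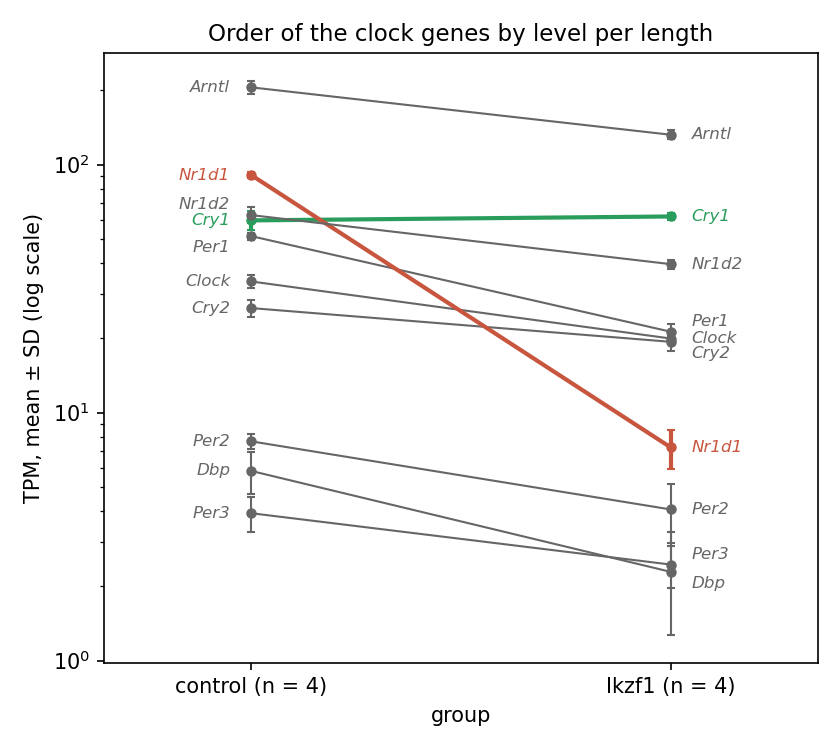
Mean level per length of each clock gene in TPM (log scale, ± SD, n = 4) in the control and the Ikzf1 group, joined by a line per gene. The Nr1d1 line crosses those of Nr1d2, Cry1, Per1, Clock and Cry2 as its level goes from 90.8 to 7.24 TPM.

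Levels were also summed by role. As above, TPM sums in the Ikzf1 libraries carry the share taken by Ikzf1, so no difference between groups is read from the sums. Shares within a pair of genes do not depend on the size of the library. Nr1d1 made up 59.2% of the summed REV-ERB TPM in the controls (57.2 to 61.0%) and 15.4% in the Ikzf1 libraries (12.7 to 19.0%), so the more abundant REV-ERB transcript was Nr1d1 in each control and Nr1d2 in each Ikzf1 library. The summed REV-ERB level was 153 TPM in the controls and 46.9 TPM in the Ikzf1 libraries. The 3 Period genes together were at 63.1 and 27.7 TPM, the activators Arntl and Clock at 238 and 152 TPM, and the cryptochromes at 86.0 and 81.1 TPM. The cryptochrome ranges overlapped (77.9 to 93.9 and 79.4 to 83.1 TPM), and in CPM Cry1 rose while Cry2 fell. In control replicate 4 a Cry1 fragment of 177 bases, ENSMUST00000214675.1, with 7.1 reads was counted as 11.3 TPM. The share of Cry1 in the cryptochrome sum was 69.3% in the controls (66.8 to 71.1%) and 76.2% in the Ikzf1 libraries (74.1 to 78.1%), with no overlap. Arntl made up 85.8% and 86.9% of the activator sum (84.9 to 86.7% and 86.5 to 87.2%), ranges that overlapped at their edge.

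The reads of most genes came from 1 transcript. The Nr1d1 reads lay on ENSMUST00000064941.6 (2721 bases), with 2959.8, 2810.6, 3226.0 and 3561.7 estimated reads in the controls and 259.3, 228.0, 226.2 and 274.4 in the Ikzf1 libraries. A second, short Nr1d1 model, ENSMUST00000139220.1 (781 bases), had 8.0 to 28.3 reads in a control and 3.8 to 19.7 in an Ikzf1 library. Nearly all of the lost reads were thus from the long transcript, whose share of the Nr1d1 TPM averaged 97.8% for controls and 88.1% with Ikzf1. The short one averaged 17.1 and 8.77 reads. For Clock, ENSMUST00000202651.3 (9744 bases) made up 22.7 to 25.3% of the TPM in the controls and 29.0 to 33.8% in the Ikzf1 libraries, and the most abundant model, ENSMUST00000075159.4, 58.2% and 50.8% on average. The Per1 reads lay mainly on ENSMUST00000021271.13 in both groups (82.5% and 77.7% of the TPM). The Per2 reads lay on ENSMUST00000069620.9, except that a fragment of 231 bases, ENSMUST00000185298.1, with 3.0 reads took 37.3% of the Per2 TPM in Ikzf1 replicate 4. The part of this assignment in the smaller Per2 change under the length offset was not tested. The splits of Per3 and Dbp among their models varied between libraries of the same group over wide ranges and are not described further.

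The spans of 4 clock genes overlap that of a neighbour. Whether their exons overlap was not examined, so it is not known whether reads are shared. For genes on opposite strands this also depends on the use of the strand in counting, which is not given in the sources used here. Nr1d1 overlaps the end of Thra, a thyroid hormone receptor gene on the opposite strand, over 1075 bases. Thra was at 97.2 ± 6.56 CPM in the controls and 86.8 ± 2.52 CPM in the Ikzf1 libraries (log2 fold change -0.16, SE 0.05, edgeR adjusted p 0.00542), with overlapping groups. Dbp overlaps Sphk2 on the opposite strand over 737 bases, and Sphk2 did not pass (0.06, edgeR adjusted p 0.429). Per3 lies wholly within Camta1 on the same strand. Camta1 rose from 141 to 170.0 CPM (log2 fold change 0.27, edgeR adjusted p 3.84e-06), opposite in direction to Per3, and with no scaling factor that call was lost (0.06, edgeR adjusted p 0.243). Clock contains the pseudogene Ube2n-ps1 over 459 bases, which did not pass (-0.11, edgeR adjusted p 0.252).

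The wider clock pathway was described with 77 further genes in 8 lists, of which 73 were tested, 21 rose and 27 fell past the edgeR threshold, and 25 did not pass. Among all tested genes 59.1% passed, 29.3% higher and 29.8% lower, and the counts of each list below are to be read against these shares. Their median log2 fold change was 0.00, as for all genes. With no scaling factor the split was 11 higher and 47 lower, as all genes shifted to 2347 higher and 7740 lower. Of the 15 kinases, phosphatases and ubiquitin factors that set the stability of the PER and CRY proteins, 4 rose, 6 fell and 5 did not pass (median -0.08). Csnk1d and Csnk1e, casein kinases that mark PER for destruction, rose by 0.26 and 0.33 on the log2 scale (edgeR adjusted p 4.13e-06 and 1.63e-07). Rises of this size are near the shift of the median of all genes with no scaling factor (-0.21). Csnk1a1, another casein kinase gene of the list, was lower (log2 fold change -0.41, edgeR adjusted p 1.04e-09). Gsk3b, also a kinase gene, was lower too (-0.34, edgeR adjusted p 8.99e-08). Usp2, a deubiquitinase and clock output gene, fell from 5.66 to 3.10 CPM (log2 fold change -0.87, edgeR adjusted p 3.97e-05). Of the 11 protein cofactors 4 rose, 1 fell and 6 did not pass (median 0.07). Timeless, better known in mammals for replication fork protection, rose by 0.66 (edgeR adjusted p 8.95e-10; 0.31 and 0.0381 with the length offset), and the acetyltransferase gene Kat2b by 0.59 (edgeR adjusted p 4.76e-12).

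The REV-ERB proteins repress through a corepressor complex with NCoR. Of its 7 listed genes 3 rose, 2 fell and 2 did not pass (median 0.06). Ncor1 fell by 0.22 on the log2 scale (edgeR adjusted p 8.13e-05), while Tbl1xr1, which exchanges the corepressors, rose by 0.62, from 48.5 to 74.4 CPM (edgeR adjusted p 6.52e-11), and by 0.93 with the length offset. Of 7 genes known in other tissues to be repressed by REV-ERB, 5 were tested, with 1 higher, 3 lower and 1 that did not pass (median -0.40). Nfil3 was the 1 that rose. Lpl fell by 0.63 on the log2 scale (edgeR adjusted p 0.000693) and Npas2 as given above, and Insig2 did not pass (0.13, edgeR adjusted p 0.128). Arntl and Clock, the best known REV-ERB targets, are described above and were lower.

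Of 13 output genes driven by E-boxes or D-boxes, 11 were tested, with 2 higher, 7 lower and 2 that did not pass (median -0.43), beside 29.3% higher and 29.8% lower over all tested genes. This list shares Tef, Hlf, Bhlhe40, Bhlhe41, Ciart and Usp2 with lists given above. Tspan4, a tetraspanin gene, fell from 15.9 ± 0.934 to 5.58 ± 0.678 CPM (log2 fold change -1.50, SE 0.10, edgeR adjusted p 4.46e-13). Nampt, the enzyme of NAD salvage, fell by 0.20 (edgeR adjusted p 0.00158). In the authors' deposited table Nampt was at -0.14 and was not called (Wald test, adjusted p 0.110). Lonrf3 fell by 0.43 (edgeR adjusted p 3.48e-07), and Noct, a rhythmic phosphatase gene, was at 798 and 759.6 CPM and did not pass (edgeR adjusted p 0.169). The CREB pathway, through which light and cAMP induce Per1, had 13 genes, of which 5 rose, 2 fell and 6 did not pass (median 0.14). Its largest rises were those of Prkaca, the catalytic subunit of protein kinase A, from 111 to 189 CPM (log2 fold change 0.77, edgeR adjusted p 4.76e-15), and of Adcy1, an adenylyl cyclase gene, from 27.8 to 42.6 CPM (0.61, edgeR adjusted p 2.15e-09). Creb1 rose by 0.25 (edgeR adjusted p 1.1e-05), a size near the shift of the median of all genes with no scaling factor (-0.21). The 2 that fell were Crtc2 (log2 fold change -0.26, edgeR adjusted p 0.000276) and Crem (-0.17, edgeR adjusted p 0.0344). Of 9 genes of glucocorticoid response, a signal that also induces Per1, 3 rose, 4 fell and 2 did not pass (median -0.28). Fkbp5 rose by 0.63 (edgeR adjusted p 8.15e-11), Errfi1 fell by 0.62 (edgeR adjusted p 3.02e-11) and the receptor gene Nr3c1 fell by 0.38 (edgeR adjusted p 1.19e-07).

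**Figure D4:**
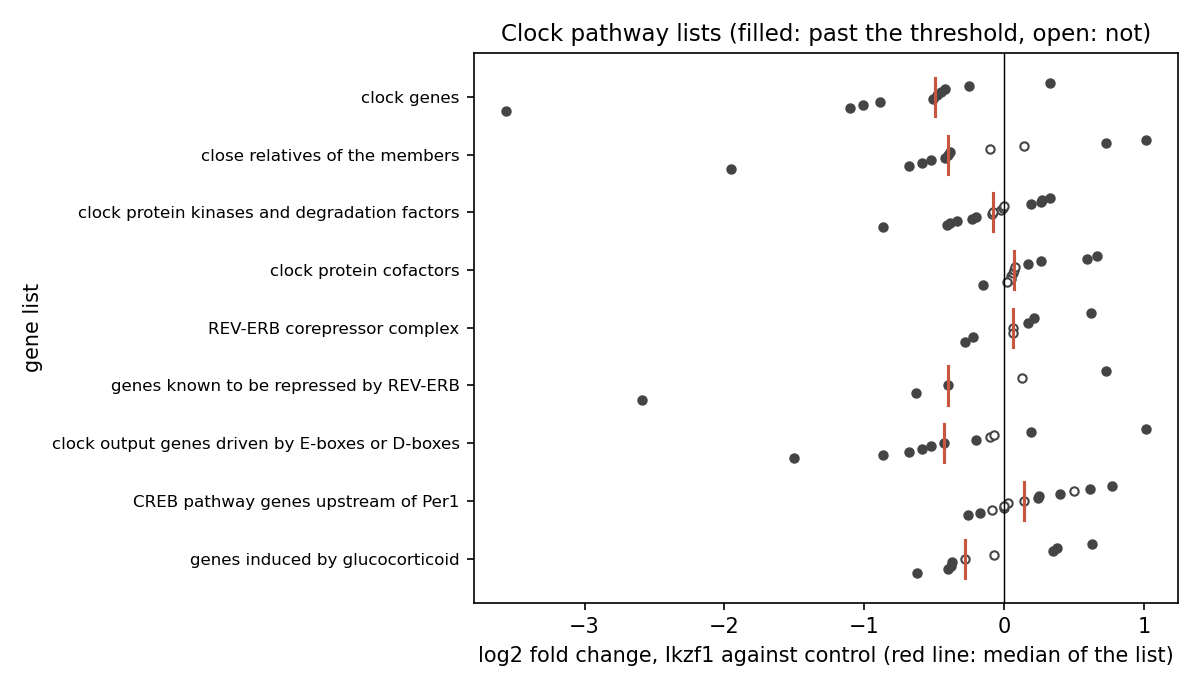
Log2 fold change, Ikzf1 against control (horizontal axis), of every tested gene in the clock gene list and the 8 pathway lists (rows), filled where it passed the edgeR threshold over all genes and open where it did not, with a red line at the median of the list. The clock genes have a median of -0.50 and the CREB list 0.14, and every pathway list holds genes on both sides of 0.

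The pattern of Nr1d1 over the 8 libraries, as log2 CPM, was set beside that of every other tested gene. The genes most like it were Erbb2 (Pearson r 0.9995 over 8 libraries), Adgre5 (0.9993), Klf3 (0.9992), Sgip1 (0.9991) and Tbrg1 (0.9991). Erbb2, a receptor tyrosine kinase gene, went from 28.4 to 6.62 CPM. Adgre5, an adhesion receptor gene, went from 23.2 to 3.38 CPM. Klf3 went from 188 to 85.8 CPM. Because the groups stand apart, r here is mostly the difference between them, and 1824 of 15581 genes (11.7%) had an r of 0.95 or more. Among the clock genes r with Nr1d1 was 0.9890 for Per1, 0.9761 for Per2, 0.9709 for Clock, 0.9696 for Arntl, 0.9466 for Nr1d2, 0.8384 for Dbp, 0.8084 for Cry2, 0.7984 for Per3 and -0.9796 for Cry1. The libraries shared a culture protocol and the groups, so these values are a description and carry no p.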

How the data were processed

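RNA-seq libraries of rRNA-depleted RNA were prepared with a stranded kit and sequenced as read pairs, per the labels' protocols. Per the submitters' processing notes the authors used Salmon and DESeq2, with mm10 among the builds. Versions, index, annotation release and strand use are not given in the sources used here. The deposited files held estimated counts and TPM per transcript, per the file headers. The authors' deposited table gave, per the file headers, a mean signal (normalised count) for each gene, log2 fold changes and their errors, Wald statistics as a score, and p-values. The peak lists of the CUT&RUN libraries are on another build and were not used here.

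These files name no genes, so transcripts were joined to genes by matching the mean normalised count in the authors' deposited table to sums of neighbouring transcripts within a relative tolerance of 5e-09. At or above a mean of 5 there were 16815 genes, of which 16723 were joined (99.5%), among them all 10 clock genes with 1 match each. Joined genes took in 99.2 to 99.3% of all reads. Another 66 genes with several matches, Wee1 included, were left out. With the means moved slightly, 67 genes (0.398%) still matched, which gives an estimate of the rate of chance matches. The simulated data used to check the join were built from the joined genes themselves, so that check covers the search and not the truth of the matches.

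Estimated counts were summed to genes, rounded, filtered with filterByExpr and scaled by TMM. The groups were compared over all 8 libraries in edgeR 4.0.16 by its robust quasi-likelihood test (two-sided, no covariate), Benjamini-Hochberg adjusted over 15591 genes, threshold 0.05. An unadjusted p under 0.05 was reached by 9734 genes. Standard errors are the absolute log2 fold change over the square root of F. The labels call the 4 libraries of a group biological replicates. Same-numbered libraries did not deviate together (correlations -0.019, -0.063, -0.022 and -0.053), so the numbers were not used as pairs. Alternatives were DESeq2 1.42.0, other scalings, no filter, a length offset, a replicate block, Ikzf1 left out, and each library left out. The clock genes and gene lists were chosen with earlier results of these data known. Named genes are the 10 clock genes, their close relatives, overlapping neighbours, up to 3 list genes in each direction with an absolute log2 fold change of at least 0.5, and the 5 genes most correlated with Nr1d1. Smaller changes in the list paragraphs (Csnk1d, Csnk1e, Csnk1a1, Gsk3b, Ncor1, Insig2, Nampt, Lonrf3, Noct, Creb1, Crtc2, Crem, Nr3c1) were named after their values were seen. These genes were not followed one by one under the alternatives. A few genes counted in the lists are not reported here by name. Sequences are from the RefSeq tables. Tests were run in R 4.3.3.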

Additional observations from a re-analysis of the deposited data

Results flagged for a closer look

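Among 82 groups of 4 libraries (2 for each of the genes named), 5 held 1 library far from the other 3 by Dixon's criterion. Chance alone gives about 1 in 20 groups. Dbp was at 3.03 CPM in control replicate 4 and at 4.16 to 4.34 CPM in the other controls. Npas2 was at 14.4 CPM in control replicate 3 against 12.9 to 13.1 CPM, and Tbl1xr1 at 46.5 CPM in the same library against 49.0 to 49.5 CPM. Prkaca was at 182 CPM in Ikzf1 replicate 1, where the others were all at 192 CPM. Tbrg1 was at 48.6 CPM in Ikzf1 replicate 1 against 42.6 to 43.4 CPM. For each of these 5 genes the side of the edgeR threshold was the same with any 1 library left out.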

How the results depend on the processing

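Under 16 alternatives the 10 clock genes gave 160 log2 fold changes, and all 160 kept their direction and their call. With each library left out in turn, Nr1d1 lay between -3.63 and -3.50, Per1 between -1.12 and -1.06, Dbp between -1.23 and -0.88, Per3 between -0.57 and -0.38 and Cry1 between 0.31 and 0.35. The number of genes called ranged from 8632 to 9026, and was 9144 with DESeq2. With library totals and no scaling factor, 2347 genes were higher and 7740 lower, 76.7% of the calls lower against 50.4% with TMM, and of the pathway genes 11 were higher and 47 lower. There Arntl2 turned to -0.08 and Sphk2 to -0.15, neither called, and Ube2n-ps1 was called at -0.32 (edgeR adjusted p 0.00101). Clock genes lower under TMM were lower still in that setting, by about the shift of all genes. With the offset for mean transcript length, 7848 genes were called and Bhlhe40 turned to 0.11. With single libraries left out Bhlhe40 lay between -0.21 and 0.00. The replicate number used as a block left 8892 genes called, with 9 clock genes lower and 1 higher and 27 and 21 pathway genes, and changed the call of none of the 41 genes run under each alternative. Since same-numbered libraries did not deviate together, the block carries no pairing. Of 656 values of all 41 named genes, 646 kept direction and call.

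The 4 libraries a group limit precision most for Dbp, Ciart and Bhlhe40, at a few CPM. The harvest time, the phase of the clock and the protein levels were not measured here.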

Other observations

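The promoter windows of the relatives held clock elements that the text above does not list. The Ciart window held 3 E-boxes, at positions -116, -58 and -44 from its start site, against 2 of 13 clock gene windows and 7.15% of all windows with any E-box. Tef held an E-box in each of its windows, at -127 and -138, and Bhlhe41 held one at -153. Nfil3 held an inverted TAGGTCA at -12, and Hlf a full cAMP response element TGACGTCA at -9. Npas2, Arntl2, Rora, Rorb, Hlf and Nfil3 held no E-box. TGGGAA, on either strand, was found in Npas2 at -224, in a Rorb window at -202, in a Tef window at -208 and in Hlf at -200. It also lay 32 bases past the start in Arntl2 and 8 in Rora, and 25.6% of all windows held it. These are matches of letters, listed as values.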
